A study of Homo sapiens with 12 samples.

Results

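The values described here are the difference between 2 lung cancer lines in their answer to NRF2 knockdown. For each gene, the change from control siRNA to NRF2 siRNA in H2023 was subtracted from the same change in H460, so a positive difference means that the level moved up more, or down less, in H460. The 8 libraries of these lines were used out of the 12 of the series, 4 per line. Both lines are human non-small cell lung cancer lines with mutant KEAP1. H460 is labelled a large cell carcinoma and H2023 an adenocarcinoma, and each is an established line, so that every library of a line came from 1 tumour. Both were grown in low glucose medium with 10% serum, transfected with control siRNA or NRF2 siRNA and collected 48 h later, and their RNA was polyA-selected. Each group held 2 libraries, numbered 0 and 1. The NRF2 siRNA libraries of a line were made with different siRNAs, number 28 in library 0 and number 30 in library 1, while the controls were biological duplicates per the study's methods. Each siRNA was used in 1 library per line, so an effect of the siRNA and of the single library cannot be told apart within a line. The 4 A549 libraries, made by removal of ribosomal RNA from cells in high glucose medium, were left out of the test. They are quoted beside some results and enter the alternative fits with 12 libraries.

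NRF2, the product of NFE2L2, is a transcription factor that KEAP1 marks for degradation in unstressed cells. When KEAP1 is lost, NRF2 builds up and with its small MAF partners drives antioxidant response elements in genes of glutathione synthesis, quinone and aldehyde detoxification, NADPH supply and iron storage. In lung cancers with mutant KEAP1 this program is on all the time, and NRF2 has also been tied to serine and nucleotide supply and to cell growth. H460 and H2023 share the lesion but differ in the rest of their genomes, so the question of the comparison is which genes answered NRF2 loss differently in the 2 backgrounds.

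NFE2L2 itself was depleted in both lines. In H460 it read 144 and 99.5 FPKM (fragments per kilobase of transcript, scaled to the number of mapped fragments) with control siRNA and 6.54 and 12.2 FPKM with NRF2 siRNA. In H2023 it read 120 and 118 FPKM with control siRNA and 7.74 and 6.80 FPKM with NRF2 siRNA. The knockdown libraries of both lines sat far below all controls and overlapped each other. On the log2(FPKM + 1) scale, which holds for every change and difference below, the difference between the lines was 0.26 ± 0.41 (SE, 95% interval -0.68 to 1.21, adjusted p = 0.791). NFE2L2 lies on chromosome 2 at 178083395 to 178257484, minus strand, GRCh37.

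Of the other genes at the head of the study, none passed the threshold of an adjusted p of 0.05. KEAP1, the NRF2 inhibitor, read 91.6 and 90.4 FPKM in H460 controls and 28 and 30 FPKM after knockdown, against 106 and 93.3 FPKM and then 35.9 and 45.8 FPKM in H2023, a difference of -0.35 ± 0.26 (SE, adjusted p = 0.534). NOTCH3, a Notch receptor, had a difference of -0.63 ± 0.46 (SE, adjusted p = 0.529). CEBPB, a bZIP transcription factor, had a difference of 0.13 ± 0.45 (SE, adjusted p = 0.918). These values were unstable. The signs of the NFE2L2 and CEBPB differences turned when single libraries were left out. NOTCH3 was at -1.28 with siRNA 28 and 0.03 with siRNA 30, and at -1.10 without H2023 siRNA 30 and -0.16 without H2023 siRNA 28. KEAP1 was at -0.18 without H2023 siRNA 30.

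Of 6 epithelial markers, the keratins KRT8, KRT18, KRT19 and KRT7 were at 10.3 FPKM or above in every library of both lines. CDH1, an adhesion protein, read 8.05 to 12.6 FPKM in H2023 controls and 58.3 to 65 FPKM after knockdown, against 0.149 to 0.525 FPKM and then 0.37 to 1.17 FPKM in H460. EPCAM, another, read 6.23 to 11.1 FPKM and then 8.76 to 15.9 FPKM in H2023, against 0.222 to 1.09 FPKM and then 0.554 to 1.19 FPKM in H460, so these defining markers were near 0 in H460. Alveolar markers were near 0, with 0 of 5 reaching 1 FPKM in H460 and 1 of 5 in H2023, where NAPSA was at most 1.25 FPKM, and squamous markers reached 1 FPKM for 0 of 4 in H460 and 1 of 4 in H2023. Of the neuroendocrine markers 3 of 5 reached 1 FPKM in each line, of the fibroblast markers 4 of 5 in H460 and 1 of 5 in H2023, of the blood markers 2 of 5 in H460 and 1 of 5 in H2023, and of the endothelial markers 0 of 2 in either. CD14, a lipopolysaccharide co-receptor of the blood list, read 1.77 to 5.49 FPKM in H460 controls and 17.6 to 19.4 FPKM after knockdown, and stayed at or under 0.788 FPKM in H2023. Between 12732 and 13909 genes were at 1 FPKM or above in a library. Mitochondrially encoded genes took 8.56% and 13.1% of the FPKM sum in H460 controls, 20.8% and 26% in H460 knockdown libraries, 12% and 18.1% in H2023 controls and 17.3% and 22.8% in H2023 knockdown libraries. Fits without mitochondrially encoded genes are given below, and the part of CD14, CDH1 and EPCAM in the results was not tested. The median SD between the libraries of a group was 0.155 in H460 controls, 0.246 in H460 knockdown libraries, 0.123 in H2023 controls and 0.21 in H2023 knockdown libraries, on the log2 scale.

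The measured changes were larger in H460 than in H2023. The median size of a change over the 12145 genes tested was 0.46 in H460 and 0.26 in H2023, and 8339 genes (68.7%) had the larger change in H460. A change of 2-fold or more was measured for 2166 genes in H460 and 625 in H2023. Across genes the changes of the lines had a Pearson r of 0.539, a description over 12145 genes that are not independent replicates and that share the 2 siRNAs. The difference between the lines was at least 1 log2 unit for 1462 genes (12%), of which 707 were higher and 755 lower in H460, and its median standard error was 0.36.

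With limma on 8 libraries, 0 of 12145 genes (0%) were higher in H460 and 2 genes (0.0165%) were lower in H460 at an adjusted p under 0.05. At an unadjusted p under 0.05, 855 genes were higher (7.04%) and 1195 were lower (9.84%). When mitochondrially encoded genes were left out and the rest rescaled, the median difference of all genes moved from -0.04 to 0.08 and the split at an unadjusted p under 0.05 turned to 1127 higher and 835 lower. Values within 0.12 of 0 therefore carry no direction. The 4 knockdown minus control values of H460 lay wholly above those of H2023 for 1785 genes (14.7%) and wholly below them for 2317 genes (19.1%).

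The siRNA used in a knockdown library is known, and the deviations of the knockdown libraries from their group mean correlated across genes at 0.414 between the lines, against 0.0466 for the controls (12145 genes that share libraries, a description). A term for the siRNA, shared by the lines, was one of the alternatives. With it 139 genes were called higher (1.14%) and 138 lower (1.14%) in H460, at the same differences but with a smaller spread. Both genes of the test without the term were among them. Of the 277 genes, 243 had the larger change in H460, beside 68.7% of all genes. Without mitochondrially encoded genes the calls of this fit were 189 higher and 84 lower. They also depended on single libraries: 275 higher and 321 lower were called without H2023 siRNA 28, 271 and 314 without H460 siRNA 28, 41 and 46 without H460 control 1, and 0 to 2 higher and 0 to 1 lower without any of the other 5 libraries. "Past the threshold with the siRNA term" below refers to this fit, and "adjusted p" alone to the fit without it.

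**Figure D1:**
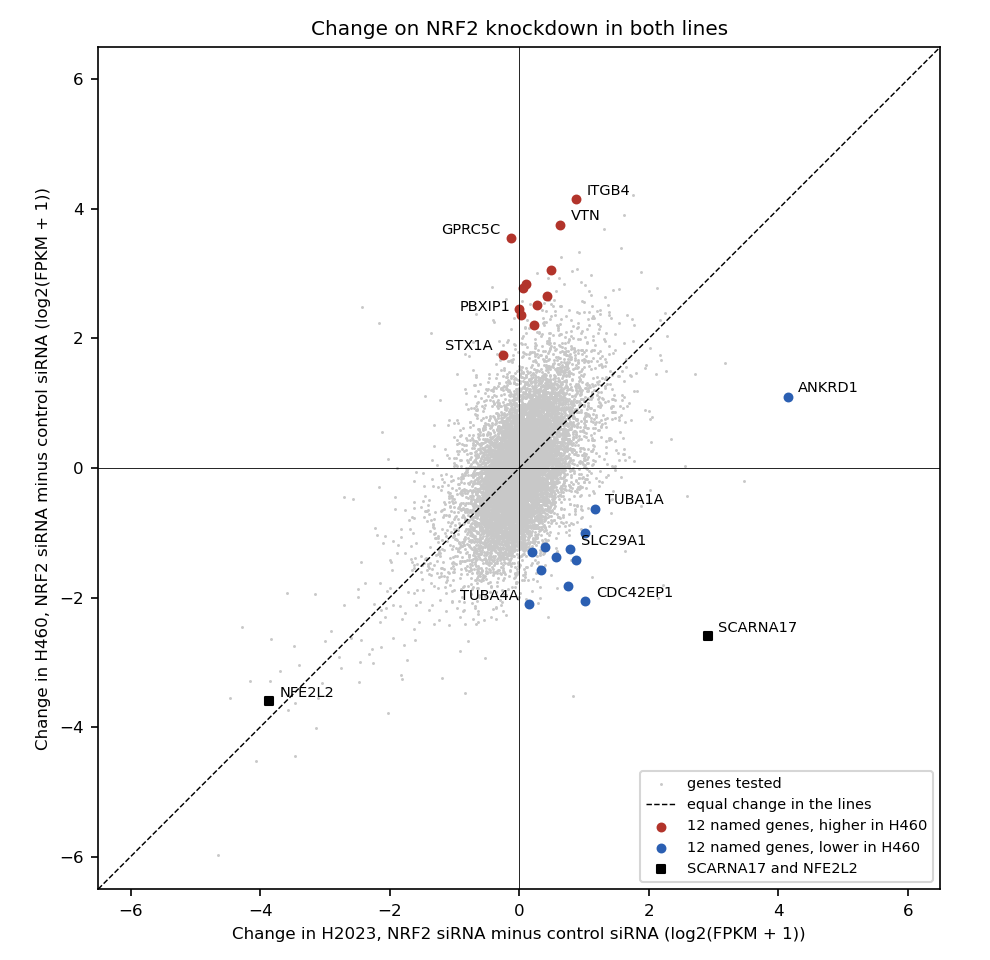
Change from control siRNA to NRF2 siRNA for each of 12145 genes, H2023 on the horizontal and H460 on the vertical axis, both in log2(FPKM + 1) units. Red and blue points are the 12 genes with the smallest p on each side, black squares are SCARNA17 and NFE2L2, and the dashed line marks equal change. The cloud is taller than it is wide (median size of change 0.46 in H460 and 0.26 in H2023), and NFE2L2 lies near the dashed line.

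Among protein-coding genes only CDC42EP1 passed the threshold without the siRNA term. CDC42EP1 encodes an effector of the small GTPase CDC42 that acts on actin and septin organisation. It read 50.6 and 34.2 FPKM in H460 controls and 9.90 and 8.68 FPKM after knockdown. In H2023 it read 21.5 and 21.7 FPKM in controls and 43.9 and 45.8 FPKM after knockdown. The lines changed in opposite directions, with no overlap between control and knockdown libraries of either line. The change was -2.05 ± 0.22 in H460 and 1.02 ± 0.22 in H2023, and the difference was -3.07 ± 0.31 (SE, 95% interval -3.78 to -2.36, adjusted p = 0.049). It was -2.96 with siRNA 28 alone and -3.19 with siRNA 30 alone. Over 21 alternatives the difference stayed between -3.35 and -2.80, and its adjusted p ranged from 0.00185 to 0.298. The call was kept without H460 siRNA 28 and lost without each of the other 7 libraries, with adjusted p from 0.0684 (H460 siRNA 30) to 0.298 (H2023 control 0). It was also lost with a replicate block within each line (adjusted p = 0.071), without the variance trend (0.0793) and without mitochondrially encoded genes (0.0511). CDC42EP1 (ENSG00000128283.6) lies on chromosome 22 at 37956487 to 37965412, plus strand, GRCh37.

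The other gene past the threshold was SCARNA17, a small Cajal body RNA, of a class that guides modification of spliceosomal RNA (ENSG00000251992.1, chromosome 18 at 47340503 to 47340646, plus strand, GRCh37). It was at 3.21 and 7.59 FPKM in H460 controls and listed at 0 in both H460 knockdown libraries. It was listed at 0 in both H2023 controls and at 6.32 and 6.76 FPKM in the knockdown libraries. The difference of -5.50 ± 0.47 (SE, adjusted p = 0.0261) depends on the pseudocount, and the authors' mean normalised counts of 5.47 in H460 and 7.87 in H2023 show how few reads lay behind it. RNAs this short are poorly held by polyA selection, and SCARNA17 passed the filter in each line only through the group where it was above 0, so it is given as a value only. Its call was lost without either H2023 control, either H2023 knockdown library or H460 siRNA 30. It was also lost with a replicate block within each line.

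The promoters of 3 genes that the results below turn on are shown with that of CDC42EP1, the protein-coding gene past the threshold. The ANKRD1 promoter is shown since the gene is a classic target of the TEAD factors, and the MCM3 and MCM7 promoters since the DNA replication genes had the lowest differences as a list. Each is the RefSeq window of 300 bases (GRCh38.p14), from 250 before to 50 after the gene start, written 5' to 3' on the gene's strand. Capitals mark GGAATG, the TEAD motif, in ANKRD1 and TTTCCCGC or TTTGGCGC, forms of the E2F motif, in MCM3 and MCM7, on either strand (in MCM7 the reverse complement).
CDC42EP1, chr22:37560230-37560529, plus strand: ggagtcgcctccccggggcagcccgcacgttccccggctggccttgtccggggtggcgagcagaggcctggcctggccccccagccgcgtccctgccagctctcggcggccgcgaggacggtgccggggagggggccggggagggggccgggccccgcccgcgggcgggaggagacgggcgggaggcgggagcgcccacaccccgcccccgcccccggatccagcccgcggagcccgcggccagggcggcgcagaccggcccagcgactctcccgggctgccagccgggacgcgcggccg
ANKRD1, chr10:90921038-90921337, minus strand: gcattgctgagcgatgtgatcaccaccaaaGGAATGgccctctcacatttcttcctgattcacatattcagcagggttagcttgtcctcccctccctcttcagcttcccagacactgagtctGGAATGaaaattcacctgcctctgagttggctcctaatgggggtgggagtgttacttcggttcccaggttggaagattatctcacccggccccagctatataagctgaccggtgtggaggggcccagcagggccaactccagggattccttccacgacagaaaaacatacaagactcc
MCM3, chr6:52284693-52284992, minus strand: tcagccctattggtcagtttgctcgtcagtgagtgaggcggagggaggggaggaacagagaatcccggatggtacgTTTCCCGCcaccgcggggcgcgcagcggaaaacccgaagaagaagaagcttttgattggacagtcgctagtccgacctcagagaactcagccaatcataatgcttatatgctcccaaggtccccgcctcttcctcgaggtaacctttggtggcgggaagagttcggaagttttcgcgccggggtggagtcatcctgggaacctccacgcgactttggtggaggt
MCM7, chr7:100101348-100101647, minus strand: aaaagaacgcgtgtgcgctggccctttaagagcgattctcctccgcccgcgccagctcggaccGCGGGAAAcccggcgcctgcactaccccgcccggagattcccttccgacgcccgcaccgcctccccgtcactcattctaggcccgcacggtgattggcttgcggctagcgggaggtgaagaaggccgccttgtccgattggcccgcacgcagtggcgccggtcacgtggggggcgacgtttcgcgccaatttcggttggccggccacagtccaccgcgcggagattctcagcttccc
GGAATG occurred 2 times in the ANKRD1 window and in 14% of the 27305 promoters of the table. These E2F letters occurred 1 time each in MCM3 and MCM7 and in 2.31% of all promoters. Other forms of the E2F motif were not searched for and are not marked. CDC42EP1 held no GGAATG. These matches describe letters in a window and not bound sites.

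The 12 genes with the smallest p on the higher side were PBXIP1, GPRC5C, CAMK2N1, VTN, CCDC159, MVP, STX1A, YPEL5, ITGB4, SNED1, TIMP2 and SMOC1. None passed the threshold (adjusted p = 0.0607 to 0.0754). CAMK2N1, ITGB4 and SNED1 were under 1 FPKM in both H460 controls and passed the filter on low values in H460 only through the knockdown libraries, so they had to differ there and their tests support nothing. The other 9 passed the threshold with the siRNA term. The changes of the 12 did not overlap between the lines, as the choice by p makes likely. Their changes lay between 1.75 and 4.15 in H460 and between -0.25 and 0.88 in H2023.

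PBXIP1, which binds PBX homeodomain proteins, read 10.2 and 11.9 FPKM in H460 controls and 59.8 and 61.9 FPKM after knockdown. In H2023 the same gene read 15.3 and 14.9 FPKM and then 16.7 and 14.1 FPKM. All H2023 libraries overlapped, whereas the H460 knockdown libraries stood above every other library, a difference of 2.34 ± 0.26. GPRC5C, an orphan receptor of the retinoic acid-induced family, read 2.99 and 5.54 FPKM and then 59.2 and 58.3 FPKM in H460, against 29.4 and 19.4 FPKM and then 27.2 and 17.5 FPKM in H2023. STX1A, a SNARE protein of vesicle fusion, read 29 and 32.5 FPKM and then 98.8 and 113 FPKM in H460, against 21.3 and 24.1 FPKM and then 20.2 and 17.6 FPKM in H2023. For GPRC5C the change was 3.55 in H460 and -0.12 in H2023, and for STX1A 1.75 and -0.25.

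The H460 level after knockdown lay closer to that of H2023 for MVP, which was low in H460 controls and high in H2023. MVP, the main protein of vault particles, read 28 and 37.5 FPKM in H460 controls and 172 and 211 FPKM after knockdown, beside 227 and 247 FPKM in H2023 controls and 295 and 280 FPKM after knockdown. ITGB4, the integrin chain of hemidesmosomes that binds laminin, read 0.958 and 0.822 FPKM in H460 controls and 38.8 and 27.2 FPKM after knockdown. In H2023 ITGB4 stood at 41.2 and 53.3 FPKM in controls and 62.4 and 121 FPKM after knockdown. CAMK2N1, an inhibitor of the kinase CaMKII, read 0.517 and 0.628 FPKM and then 14.3 and 10.1 FPKM in H460, beside 34.1 and 30.8 FPKM and then 42.2 and 50 FPKM in H2023. The H460 level after knockdown stayed below every H2023 library for each of these 3 genes. The difference of changes was 2.24 ± 0.28 for MVP. ITGB4 and CAMK2N1 passed the filter in H460 only through the knockdown libraries. Their differences of 3.27 and 2.56 are therefore given as values only and support no pattern.

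VTN, the adhesion glycoprotein vitronectin, read 3.76 and 4.25 FPKM and then 51.2 and 86.5 FPKM in H460, against 10.9 and 8.04 FPKM and then 14.9 and 15.2 FPKM in H2023. SMOC1, a calcium-binding matrix protein, read 37.3 and 26.9 FPKM and then 200 and 270 FPKM in H460, against 43.2 and 35.8 FPKM and then 53 and 33.8 FPKM in H2023. Both ended higher in H460 than in any H2023 library. TIMP2, an inhibitor of matrix metalloproteinases, had a difference of 2.23 ± 0.32, and SNED1, another matrix protein, one of 2.47 ± 0.35, the latter from controls at 0.164 and 0.147 FPKM in H460. CCDC159 and YPEL5 completed the 12, at differences of 2.73 ± 0.34 and 1.99 ± 0.27.

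The 12 genes with the smallest p on the lower side were CDC42EP1, TUBA4A, SLC29A1, ANKRD1, WNK2, TMEM97, NOLC1, SLC27A2, PSMG1, TUBA1A, COTL1 and ABCB10. Beside CDC42EP1 their adjusted p lay between 0.0607 and 0.0913, and all 12 passed the threshold with the siRNA term. For 11 of the 12 the mean change was below 0 in H460 and above 0 in H2023, and ANKRD1 was the exception. The choice by p of the difference makes opposite signs likely, and the share of all genes with these signs was not counted. The count is therefore no result about these genes. The H2023 changes of TUBA4A (0.16 ± 0.20, SE) and COTL1 (0.20 ± 0.17, SE) were small beside their standard errors.

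ANKRD1, an ankyrin repeat protein of the muscle sarcomere and nucleus, read 1.79 and 0.825 FPKM in H460 controls and 3.88 and 3.81 FPKM after knockdown. In H2023 it read 1.88 and 1.70 FPKM in controls and 37.9 and 61.5 FPKM after knockdown. Both lines read higher after knockdown, and the H2023 knockdown libraries stood above all others. The change was 1.10 in H460 and 4.14 in H2023, a difference of -3.04 ± 0.43 (SE, adjusted p = 0.0754).

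SLC29A1, the equilibrative nucleoside transporter, read 29.9 and 30.8 FPKM and then 12.6 and 11.7 FPKM in H460, against 13.4 and 13.7 FPKM and then 21.1 and 27.5 FPKM in H2023. The knockdown thus turned the order of the lines. TMEM97, the sigma-2 receptor that acts in cholesterol traffic, read 144 and 132 FPKM and then 50.7 and 28.9 FPKM in H460, against 156 and 133 FPKM and then 268 and 219 FPKM in H2023. The controls of the lines overlapped and the knockdown libraries parted, with a difference of -2.57 ± 0.38. WNK2, a kinase of ion transport control, SLC27A2, a fatty acid transporter and acyl-CoA synthetase, and ABCB10, a transporter of the inner mitochondrial membrane, had differences of -1.93 ± 0.27, -2.29 ± 0.34 and -2.01 ± 0.32.

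TUBA4A and TUBA1A encode alpha-tubulins, and COTL1 encodes an actin-binding protein. TUBA4A read 366 and 365 FPKM and then 83.1 and 85.3 FPKM in H460, against 407 and 423 FPKM and then 385 and 553 FPKM in H2023. TUBA1A read 441 and 521 FPKM and then 314 and 307 FPKM in H460, against 61.7 and 80 FPKM and then 165 and 154 FPKM in H2023. The tubulins differed in which line carried the difference. The H460 part of the difference was -2.11 for TUBA4A and -0.63 for TUBA1A, and the H2023 part was 0.16 and 1.17. COTL1 had a difference of -1.49 ± 0.23. NOLC1, a nucleolar phosphoprotein, read 515 and 406 FPKM and then 157 and 149 FPKM in H460, against 135 and 165 FPKM and then 175 and 203 FPKM in H2023. PSMG1, a chaperone of proteasome assembly, had a difference of -1.62 ± 0.24.

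**Figure D2:**
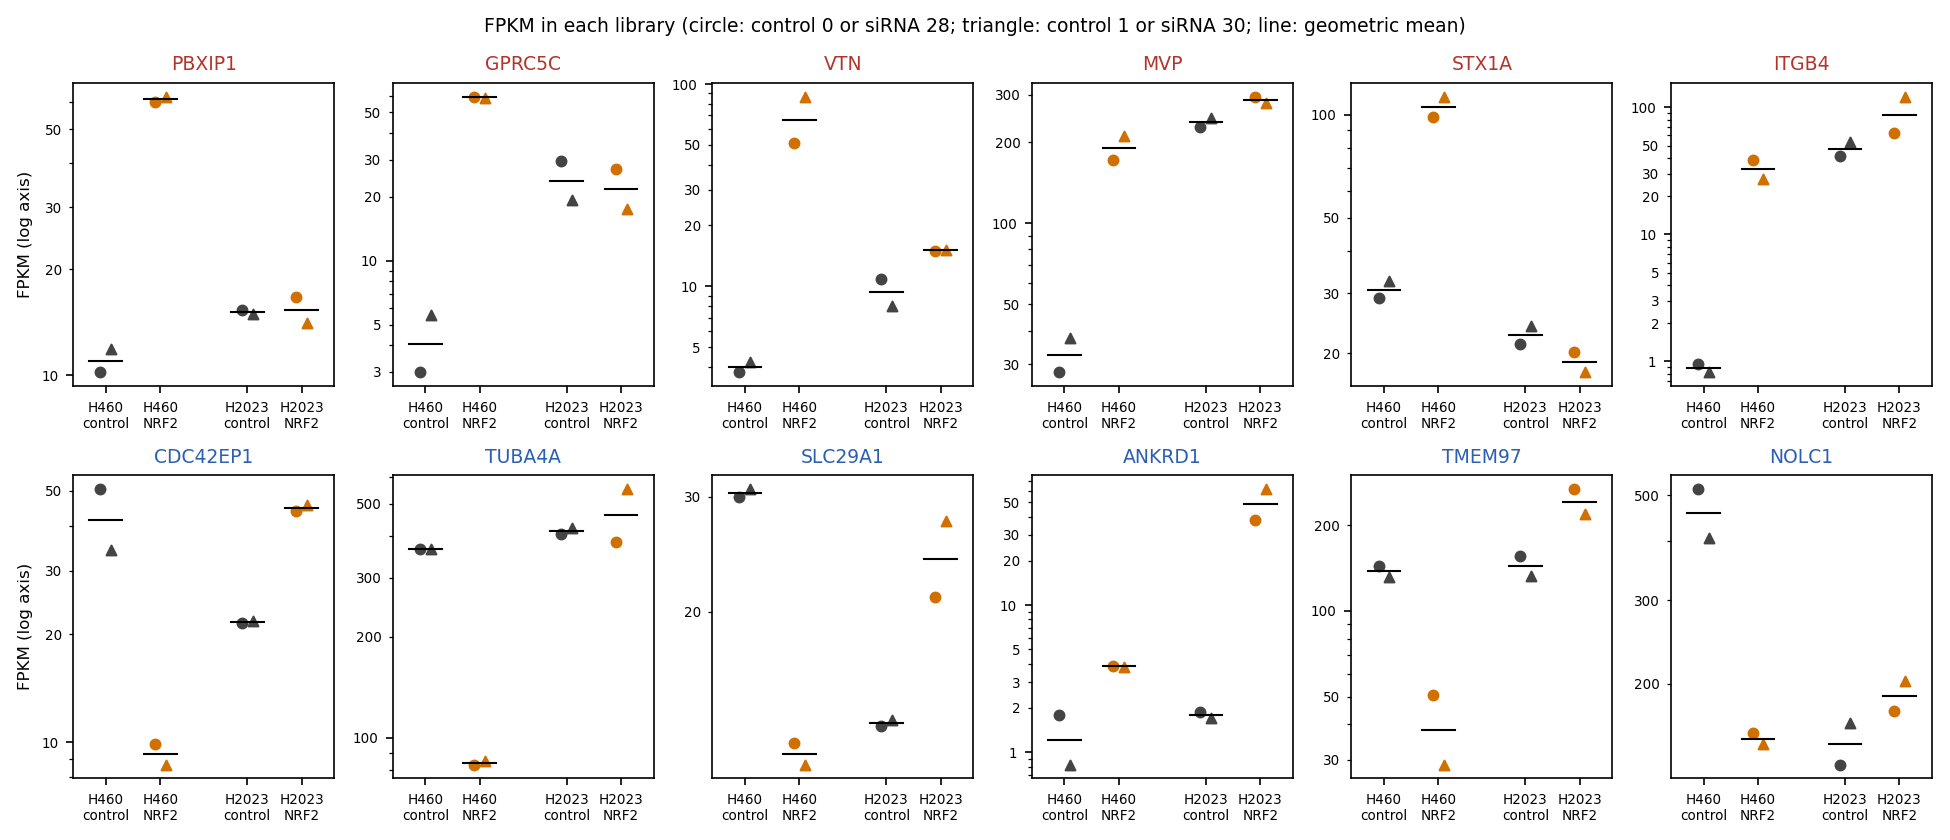
FPKM in each of the 8 libraries for 12 of the 24 genes with the smallest p, on log axes. Red titles mark genes higher and blue titles genes lower in H460, grey points are control and orange points NRF2 siRNA libraries, and lines are geometric means of 2 libraries. In the upper row H460 moves more than H2023 (PBXIP1 from 10.2 and 11.9 to 59.8 and 61.9 FPKM in H460). The H2023 changes there run from -0.25 (STX1A) to 0.88 (ITGB4) on the log2(FPKM + 1) scale. In the lower row the mean changes of the lines have opposite signs except for ANKRD1, and the H2023 libraries of TUBA4A overlap.

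The 32 gene lists differed widely in their medians, from -1.23 for DNA replication genes to 1.24 for replication-dependent histones, against -0.04 for all genes tested. The 8 lists farthest from all genes were these 2, inflammatory genes, serine synthesis and one-carbon enzymes, cholesterol synthesis, nucleotide synthesis, mitochondrially encoded genes, and integrins and laminins. Apart from CDC42EP1 in the list of actin and adhesion regulators, no member of any list passed the threshold without the siRNA term. Counts and medians of lists are descriptions, and their members were not tested as sets.

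Genes of DNA replication gave the lowest median. Of 39 members tested, 38 had a difference below 0, 28 had changes wholly below those of H2023 (71.8%, against 19.1% of all genes) and 28 had an unadjusted p under 0.05 on the lower side (71.8%, against 9.84%). Only CDT1, the licensing factor, passed the threshold with the siRNA term, 1 of 39 members against 1.14% of all genes, which is no result about the list, and it is named after its value was seen. The median change of the list was -1.27 in H460, -0.03 in H2023 and -0.26 in A549.

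The 3 members with the smallest p were subunits of the MCM helicase. MCM3 read 73.6 and 68.9 FPKM and then 29.5 and 16.6 FPKM in H460, against 50.5 and 51.2 FPKM and then 46.4 and 62.9 FPKM in H2023, a difference of -1.72 ± 0.39 (SE, adjusted p = 0.125). MCM7 read 191 and 186 FPKM and then 83.9 and 52.6 FPKM in H460, against 124 and 128 FPKM and then 103 and 157 FPKM in H2023. In H460 both knockdown libraries lay below both controls, and in H2023 siRNA 28 lay below the controls and siRNA 30 above them. MCM5 had a difference of -1.33 ± 0.37. The list median was -0.71 with siRNA 28 alone and -1.87 with siRNA 30 alone. The E2F letters that MCM3 and MCM7 hold were in 16 of the 33 promoters of the list found in the table (48.5%), against 3.87% of the promoters of 9253 genes tested.

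The mitosis and kinetochore genes had a median of -0.81, with 40 of 42 below 0 and 11 of 42 at an unadjusted p under 0.05 on the lower side (26.2%, against 9.84% of all genes). Without H2023 siRNA 30 the median was -0.42.

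Replication-dependent histones, whose transcripts mostly end in a stem-loop and not in a polyA tail, stood at the other end. Only 8 of the 20 listed genes were tested, and 5 of the 8 were above 0. H2BC5, a histone H2B, read 5.26 and 5.52 FPKM and then 43.3 and 39.6 FPKM in H460, against 23.3 and 18.2 FPKM and then 54.6 and 17.4 FPKM in H2023. H2AC6, a histone H2A, read 1.74 and 1.81 FPKM and then 17.7 and 23 FPKM in H460, against 6.25 and 6.29 FPKM and then 20.7 and 4.77 FPKM in H2023. In H2023 siRNA 28 gave high and siRNA 30 gave low values, and in H460 both gave high values. H1-2, a linker histone, had a difference of 1.40 ± 0.59 (SE, adjusted p = 0.283). Without H2023 siRNA 30 the differences of H2BC5, H2AC6 and H1-2 were 1.36, 1.35 and 0.92. The list median was 0.51 with siRNA 28 and 1.80 with siRNA 30, 0.47 without H2023 siRNA 30, and 0.66 when only genes with a mean log2 of at least 3 were kept. Histone genes resemble each other in sequence, and the values passed polyA selection, whose part in the result was not tested.

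The metabolic lists that feed DNA synthesis shared the direction of the replication genes. Nucleotide synthesis had a median of -0.86, with 21 of 22 members below 0, 16 wholly below H2023 (72.7%, against 19.1%) and 4 past the threshold with the siRNA term (against 1.14%). IMPDH2, which makes the guanine nucleotide precursor, read 333 and 249 FPKM and then 100 and 99.6 FPKM in H460, against 97.7 and 95.1 FPKM and then 94.2 and 95.1 FPKM in H2023. IMPDH2 thus ended in H460 near the level that H2023 held throughout, and its difference was -1.49 ± 0.26 (SE, adjusted p = 0.101). PFAS, a purine synthesis enzyme, had a difference of -1.65 ± 0.32 and PRPS2, which makes the activated ribose, one of -2.02 ± 0.39. CAD, the multifunctional enzyme of pyrimidine synthesis, named after its value was seen, was the fourth past the threshold with the siRNA term, at -1.24.

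Serine synthesis and one-carbon enzymes had a median of -0.95, with 16 of 18 below 0 and 12 wholly below H2023 (66.7%, against 19.1% of all genes). GLDC, the glycine decarboxylase, read 2.12 and 1.79 FPKM and then 1.09 and 1.14 FPKM in H460, against 8.05 and 4.71 FPKM and then 20.2 and 16.8 FPKM in H2023, a difference of -1.91 ± 0.38 (SE, adjusted p = 0.111). Most of its difference came from H2023, at a change of 1.43 beside -0.48 in H460. GART, a purine enzyme that uses one-carbon units, and MTHFD1, which interconverts folates, had differences of -1.28 ± 0.32 and -0.94 ± 0.25. The amino acid and ATF4 genes had a median of -0.69, which became 0.25 without H460 control 0, -1.36 without H460 control 1 and -0.43 without H460 siRNA 30. The tRNA synthetases had a median of -0.74 with 16 of 16 tested below 0.

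Lipid synthesis genes had median changes of opposite sign in the lines. Cholesterol synthesis genes had a median change of -0.25 in H460 and 0.66 in H2023, and a median difference of -0.93, with 20 of 21 below 0 and 9 wholly below H2023 (42.9%, against 19.1% of all genes). The 4 that passed the threshold with the siRNA term (against 1.14% of all genes) were LSS, DHCR7, MVD and CYP51A1, enzymes of the pathway, of which MVD and CYP51A1 are named after their values were seen. LSS, the lanosterol synthase, read 17 and 19.8 FPKM and then 16.2 and 8 FPKM in H460, against 33.4 and 34.8 FPKM and then 83.5 and 53.6 FPKM in H2023. DHCR7, which makes the last step to cholesterol, read 111 and 88.5 FPKM and then 75.7 and 32.3 FPKM in H460, against 108 and 96.5 FPKM and then 211 and 135 FPKM in H2023. Both siRNAs lay above the controls in H2023 and below them in H460, and in both lines siRNA 30 gave the lower level. Without H460 siRNA 30 the difference of DHCR7 was -1.10. INSIG1, the sterol sensor partner, had a difference of -1.29 ± 0.36 (SE, adjusted p = 0.155). The list median was -0.55 without H460 siRNA 30 and -1.48 without H460 siRNA 28. Fatty acid synthesis genes had a median of -0.78 with 14 of 16 below 0, and of -0.17 without H460 siRNA 30.

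**Figure D3:**
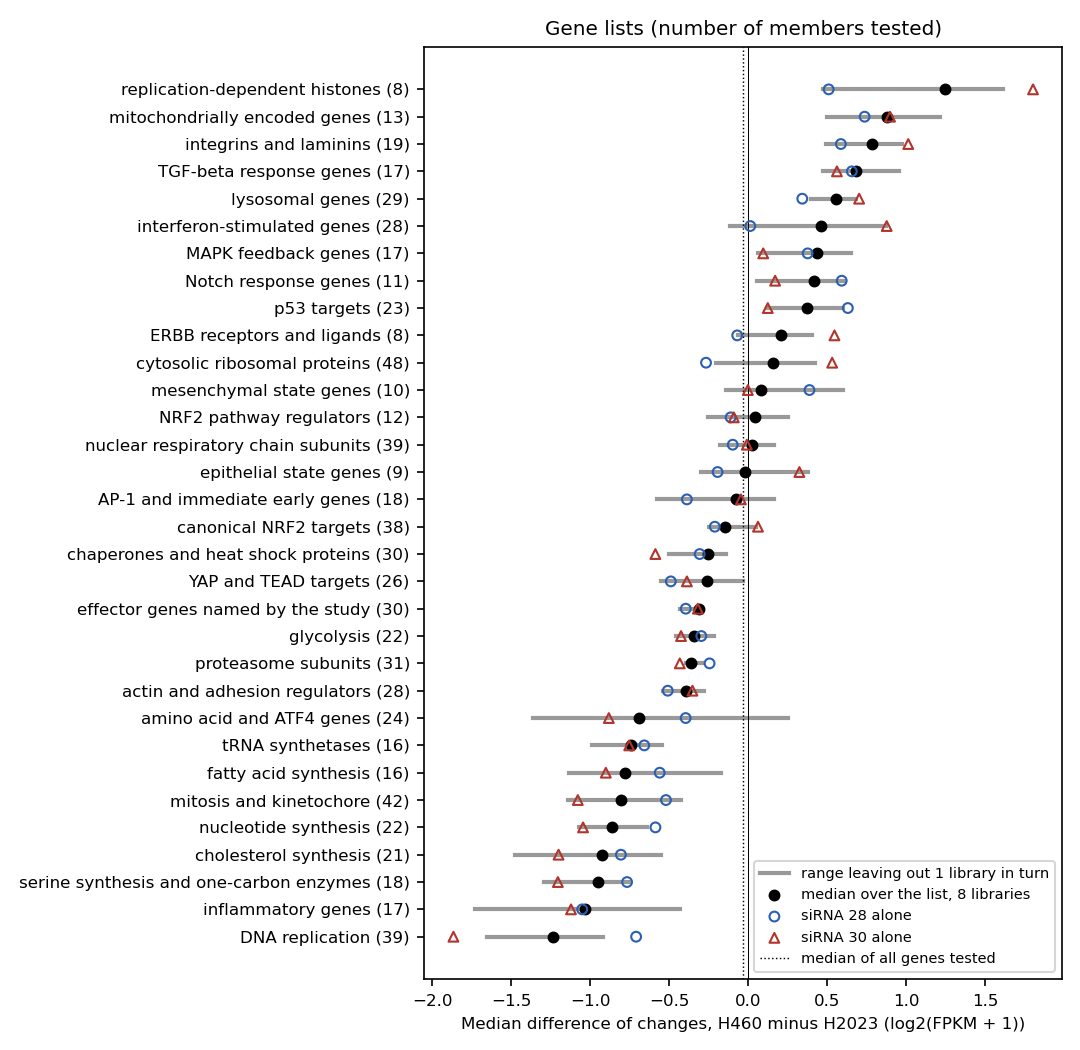
Median difference of changes (H460 minus H2023, log2(FPKM + 1)) of each of 32 gene lists, with the number of members tested. Black points use all 8 libraries, grey bars span the medians without each library in turn, and open symbols use siRNA 28 or siRNA 30 alone. DNA replication (-1.23) lies lowest and replication-dependent histones (1.24) highest, and the medians of both differ between the siRNA 28 and the siRNA 30 libraries.

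The inflammatory list depended on the H460 controls. Of its 17 members tested, 14 were below 0, and the median was -1.03 with all libraries, -0.43 without H460 control 0 and -1.73 without H460 control 1. CXCL3, CXCL1 and CXCL5 encode chemokines that draw neutrophils. CXCL5 read 192 and 45.7 FPKM in H460 controls and 71.3 and 93 FPKM after knockdown, against 84.3 and 70.7 FPKM and then 1167 and 643 FPKM in H2023. The H460 libraries overlapped, and the H2023 knockdown libraries stood above all others. CXCL1 read 723 and 490 FPKM and then 193 and 177 FPKM in H460, against 48.2 and 56.8 FPKM and then 204 and 64.8 FPKM in H2023. CXCL3 read 88.5 and 13.1 FPKM and then 1.84 and 2.36 FPKM in H460, against 7.56 and 8.06 FPKM and then 32.3 and 6.29 FPKM in H2023. The differences were -3.67 ± 0.82 for CXCL5, -2.80 ± 0.65 for CXCL1 and -4.35 ± 1.24 for CXCL3 (adjusted p = 0.125, 0.136 and 0.164), and CXCL1 alone of the 17 members passed the threshold with the siRNA term, against 1.14% of all genes. These chemokine genes are close in sequence, so reads may have been shared between them.

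Integrins and laminins, the receptors and sheets of the basement membrane, were higher in H460 as a list. The median was 0.78, with 17 of 19 above 0, and ITGB4 is included in both values. ITGB4 passed the filter in H460 only through the knockdown libraries, so it is left out of the counts that follow. Of the other members, 8 were wholly above H2023 (against 14.7% of all genes), and LAMA5, LAMB1 and ITGB5 passed the threshold with the siRNA term (against 1.14%), the last named after its value was seen. LAMA5, a laminin alpha chain, read 40 and 41.4 FPKM and then 214 and 179 FPKM in H460, against 48.3 and 60.2 FPKM and then 99.8 and 105 FPKM in H2023. LAMB1, a laminin beta chain, read 86.1 and 70.1 FPKM and then 314 and 273 FPKM in H460, against 93.3 and 78.9 FPKM and then 153 and 114 FPKM in H2023. Controls of the lines were close and readings were higher after knockdown in both, by more in H460, with differences of 1.32 ± 0.26 and 1.29 ± 0.30 (SE, adjusted p = 0.109 and 0.136). The 2 members below 0, named after their values were seen, were the collagen chains COL4A1 and COL4A2, at -1.14 and -0.83. Without H2023 siRNA 30 the list median was 0.49.

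Mitochondrially encoded genes had a median of 0.88, with 13 of 13 above 0 and none at an unadjusted p under 0.05. MT-ND1, a subunit of respiratory complex I, read 2842 and 4700 FPKM and then 7378 and 9978 FPKM in H460, against 4677 and 5981 FPKM and then 5817 and 6500 FPKM in H2023. Its difference was 1.01 ± 0.47, and MT-ND4L and MT-ND2, of the same complex, had 0.97 ± 0.51 and 0.89 ± 0.49 (adjusted p = 0.329, 0.382 and 0.399). The controls of a line were as far apart as 2842 and 4700 FPKM, and without H460 control 0 the differences of MT-ND1 and MT-ND2 were 0.65 and 0.47. The list median was 0.50 without H460 siRNA 30, 0.54 without H2023 control 1, 0.58 without H460 control 0 and 0.51 with quantile normalisation. The nuclear genes for respiratory chain subunits had a median of 0.02 over 39 members.

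The canonical NRF2 targets, the direct program of the factor, had like median changes in both lines. Of the canonical NRF2 targets 38 were tested, with a median change of -2.21 in H460, -2.17 in H2023 and -2.29 in A549, and a median difference of -0.15, with 16 members above and 22 below 0. At an unadjusted p under 0.05, 7 members were higher (18.4%, against 7.04% of all genes) and 3 lower (7.89%, against 9.84%), and 9 were wholly above H2023 (23.7%, against 14.7%) and 4 wholly below (10.5%, against 19.1%). That median has no stable sign: it was -0.21 with siRNA 28 and 0.06 with siRNA 30, 0.08 with quantile normalisation, -0.01 without mitochondrially encoded genes, and between -0.25 (without H460 control 1) and 0.05 (without H460 control 0) with 1 library left out. Single members leaned both ways. GCLM, the modifier subunit of the enzyme that starts glutathione synthesis, read 60.1 and 70.2 FPKM and then 2.71 and 3.51 FPKM in H460, against 90.1 and 76.4 FPKM and then 9.01 and 8.16 FPKM in H2023, a difference of -0.88 ± 0.29 (SE, adjusted p = 0.193). AKR1C3, an aldo-keto reductase, had a difference of -1.45 ± 0.49, which was -0.86 without H2023 siRNA 28, and HMOX1, the heme oxygenase, one of -0.80 ± 0.32.

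On the other side stood ABCC2, an export pump for glutathione conjugates, which was the only 1 of 38 canonical targets past the threshold with the siRNA term, against 1.14% of all genes, and is named after its value was seen. It read 46.5 and 40 FPKM and then 35.4 and 48.1 FPKM in H460, against 45.4 and 42.7 FPKM and then 15.4 and 12.6 FPKM in H2023. The H460 libraries overlapped, while both H2023 knockdown libraries lay below both controls, a difference of 1.53. In A549 the change was -1.93. NQO1, the quinone reductase, is also named after its values were seen. It read 980 and 1065 FPKM and then 200 and 346 FPKM in H460, against 1060 and 876 FPKM and then 115 and 101 FPKM in H2023, changes of -1.95 and -3.15 (adjusted p of the difference = 0.19).

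**Figure D4:**
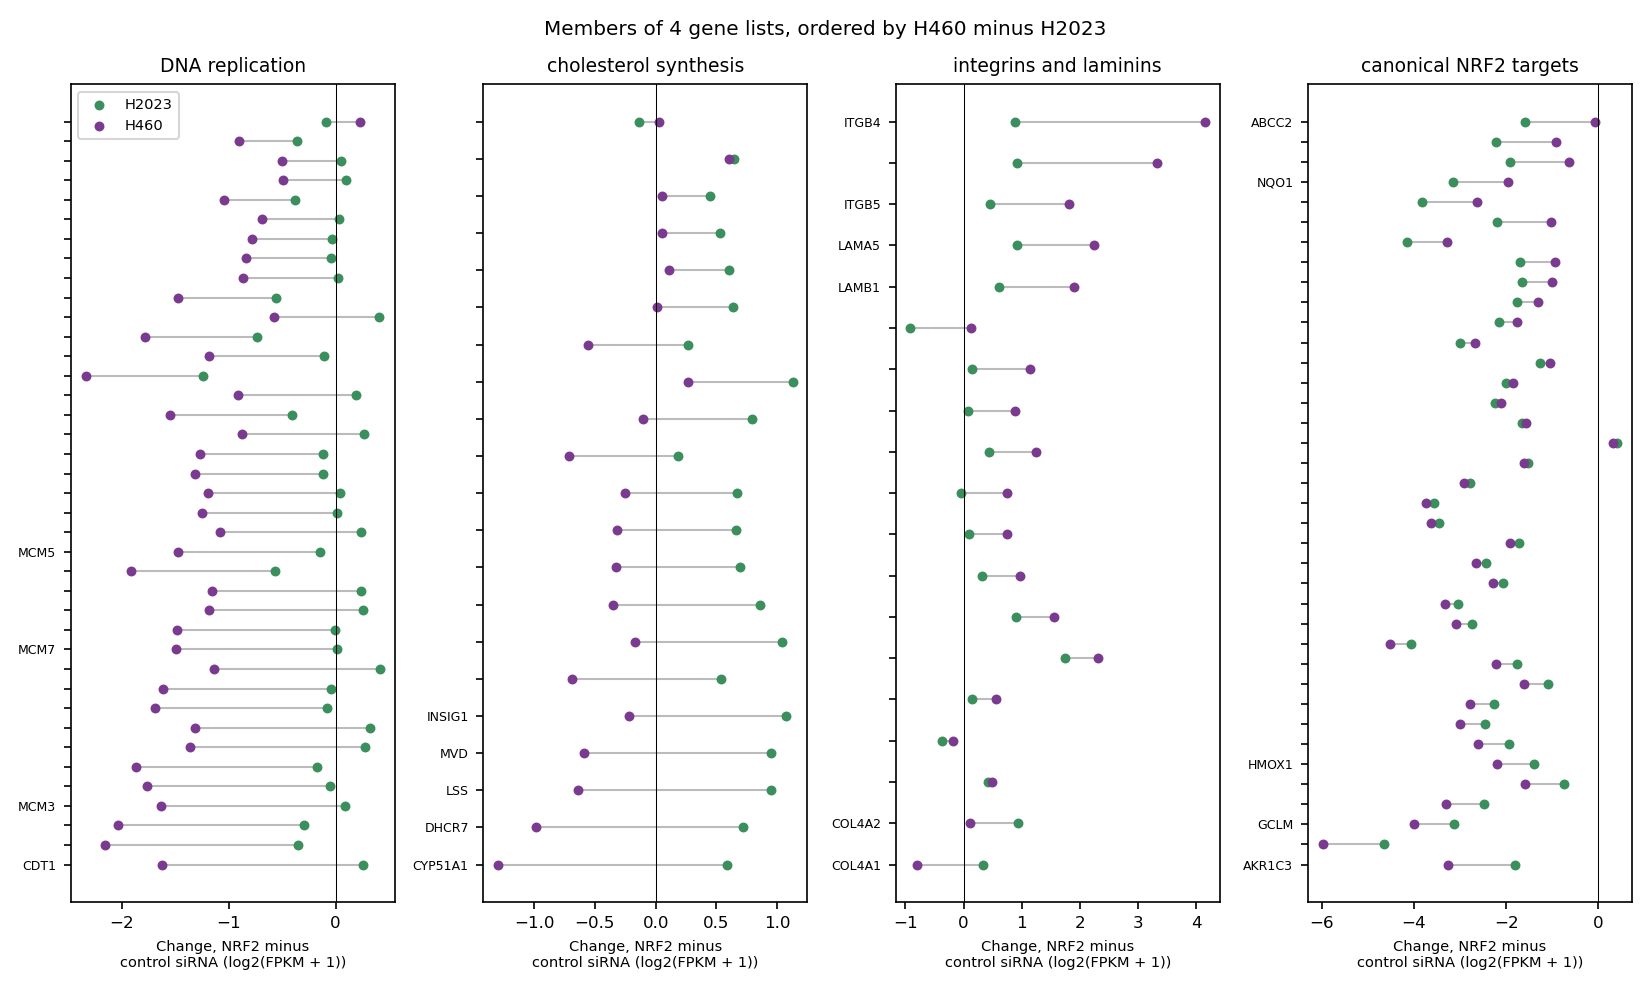
Change from control to NRF2 siRNA in H460 (purple) and H2023 (green) for the tested members of 4 lists, in log2(FPKM + 1), ordered by their difference, with labels on members named in the text. DNA replication genes lie left of H2023 in H460 for 38 of 39 members and cholesterol synthesis genes for 20 of 21. Integrins and laminins lie right of H2023 for 17 of 19, with ITGB4 counted. The NRF2 targets have medians of -2.21 in H460 and -2.17 in H2023, with differences of both signs. Not every target fell, and the H460 libraries of ABCC2 overlapped.

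The effector genes that the study names were chosen with these samples in use, so their direction in each line is no independent evidence. Their median difference was -0.31, with 25 of 30 below 0 and 12 wholly below H2023 (40%, against 19.1% of all genes). HGD, 1 of the 30, which is named after its value was seen, was below the filter level in the H460 knockdown libraries. It passed the filter in H460 only through the controls, so its value supports nothing. The median and the counts of the list include HGD. The list median was -0.18 without mitochondrially encoded genes and -0.16 with quantile normalisation. HMGA1, a chromatin architectural protein, read 609 and 524 FPKM and then 138 and 127 FPKM in H460, against 532 and 574 FPKM and then 304 and 365 FPKM in H2023. Controls overlapped, the level was lower after knockdown in both lines, and more so in H460, with a difference of -1.36 ± 0.26 (SE, adjusted p = 0.108). HJURP, a centromere histone chaperone, and SRPK1, a kinase of splicing factors, had differences of -1.13 ± 0.29 and -0.91 ± 0.28. HMGA1 alone of the 30 members passed the threshold with the siRNA term, against 1.14% of all genes.

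The remaining lists lay closer to all genes. Medians below -0.2 were found for glycolysis (-0.35), actin and adhesion regulators (-0.39), YAP and TEAD targets (-0.26), proteasome subunits (-0.36) and chaperones (-0.25). Without mitochondrially encoded genes the medians were -0.22 for glycolysis, -0.23 for proteasome subunits, -0.14 for YAP and TEAD targets and -0.13 for chaperones. Glycolysis was at -0.22 without H460 control 0. YAP and TEAD targets were at -0.03 without H460 siRNA 28, -0.04 without H2023 siRNA 30, -0.49 without H2023 siRNA 28 and -0.55 without H460 control 1. Chaperones were at -0.14 without H2023 siRNA 30, -0.15 without H2023 control 0, -0.46 without H460 control 0 and -0.50 without H2023 siRNA 28. YAP and TEAD targets, which include ANKRD1, spanned -3.04 to 1.13. Medians above 0.3 were found for p53 targets (0.37), Notch response genes (0.42), MAPK feedback genes (0.44), interferon-stimulated genes (0.46), lysosomal genes (0.55) and TGF-beta response genes (0.68). With only genes of a mean log2 of at least 3 the medians were 0.12 for p53 targets, 0.22 for Notch genes and 0.81 for interferon-stimulated genes. The p53 median was 0.12 without H460 siRNA 28 and 0.60 without H460 siRNA 30. The Notch median was 0.06 without H460 control 0, 0.21 without H2023 siRNA 28, 0.23 without H2023 control 0 and 0.25 without H460 siRNA 28. The MAPK median was 0.06 without H460 siRNA 28, 0.24 without H460 control 1 and 0.25 without H2023 siRNA 30. The interferon median was -0.11 without H460 siRNA 30, 0.87 without H460 siRNA 28 and 0.25 without H2023 control 1. The medians of NRF2 pathway regulators (0.05), epithelial (-0.02) and mesenchymal (0.08) state genes and AP-1 genes (-0.08) lay within the shift that rescaling gave. With 1 library left out they spanned -0.25 to 0.25, -0.30 to 0.38, -0.14 to 0.60 and -0.58 to 0.16, in that order, so none has a direction. Those of cytosolic ribosomal proteins (0.16) and ERBB receptors and ligands (0.20) lay just outside it. With 1 library left out the ribosomal protein median lay between -0.20 (without H460 siRNA 30) and 0.42 (without H460 siRNA 28) and the ERBB median between -0.06 (without H460 siRNA 30) and 0.40 (without H2023 siRNA 28), so neither has a direction.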

How the data were processed

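RNA was sequenced from 12 libraries, of which 8 were used for the test. Members and gene lists were chosen with earlier results of these data known. The authors deposited FPKM values per library for 57815 genes on hg19, and a table per line whose mean normalised count, a signal over 4 libraries, is quoted as the authors' mean. The fold changes and p-values of those tables are the authors' own comparisons and were not used. Per the study's methods, reads were mapped with TopHat and quantified with Cufflinks, which shares reads between similar genes by an estimate, while the submitters' processing notes also name STAR 2.5.3a, cutadapt 1.15, bcl2fastq 2.15.0, Cuffnorm, HTSeq, DESeq2 and R 3.2.0 with no role. Whether counting used strand is not given in the sources used here. FPKM carries no depth per library. The authors' mean normalised counts summed to 14 M in H460 and 14.2 M in H2023. Values under 1e-06 (12710) were set to 0. FPKM is a share of the library, so a rise of abundant RNAs lowers all others.

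Genes with a mean log2(FPKM + 1) of at least 1 in each line (12145) were fitted with 4 group means in limma 3.58.1 (R 4.3.3), with a trend of the variance on expression and Benjamini-Hochberg adjustment at 0.05. Scripts used Python 3.11.15, pandas 2.3.3, numpy 2.4.6 and matplotlib 3.10.9, and the fits were tested on simulated data. Symbols (96.1% of identifiers) and positions of whole genes came from GENCODE lifted to GRCh37. The genes named are, leaving out small RNA genes, the 12 with the smallest p on each side, any gene past the threshold, NFE2L2, KEAP1, NOTCH3 and CEBPB, and in each list described in full the members called and the 3 with the smallest p in the direction of its median. Members named beside these are marked as named after their values were seen. Lists described in full are the 8 whose medians lie farthest from that of all genes, the canonical NRF2 targets and the effector genes. Wholly above or below means that all 4 pairings of a knockdown with a control library in one line exceed all 4 in the other. Alternatives were other pseudocounts, filters, scalings, variance models, all 12 libraries, an siRNA term, a replicate block and leaving out each library. Fits of the siRNA term together with another choice were added after seeing the data. 1 gene of the NRF2 target list is not reported here by name. Since the NRF2 siRNA replicates are different siRNAs, the p-values include the difference between siRNAs.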

Additional observations from a re-analysis of the deposited data

Results flagged for a closer look

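The test of the difference between the lines itself singled out CDC42EP1, at -3.07 (adjusted p = 0.049 in limma). SCARNA17, at -5.50, was past the same threshold, but it passed the filter in each line only through the group where it was above 0, so its test supports nothing. CDC42EP1 was higher in controls of H460 (50.6 and 34.2 FPKM) than of H2023 (21.5 and 21.7 FPKM), and the order was turned after knockdown. It lost its call in 10 of 21 alternatives at values from -3.35 to -2.80. SCARNA17 read 0 in 4 of the 8 libraries.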

How the results depend on the processing

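The call of 0 genes higher and 2 lower in H460 rests on few libraries. Higher and lower calls were 1 and 2 with a pseudocount of 0.1, 6 and 2 with a mean log2 of at least 3, 93 and 126 with no filter, 163 and 245 with 12 libraries, 139 and 138 with the siRNA term, 0 and 1 without the trend, and 0 and 1 without mitochondrially encoded genes. Leaving out 1 library gave 0 to 4 higher and 0 to 4 lower, the most without H460 siRNA 28. A replicate block within each line gave 0 higher and 0 lower. The replicate numbers were taken as numbers only: deviations of same-numbered libraries correlated at 0.16 within H460 and 0.269 within H2023, and at 0.0466 between the controls of the lines, against 0.414 between the knockdown libraries, which share an siRNA. Calls with the siRNA term were 189 and 84 without mitochondrially encoded genes, 18 and 12 without the trend, 2 and 17 with no filter, and 556 and 835 with 12 libraries, and leaving out 1 library gave 275 and 321 (H2023 siRNA 28), 271 and 314 (H460 siRNA 28), 41 and 46 (H460 control 1) or 0 to 2 and 0 to 1 (each other library). Where 1 library was left out, the lone library of that group was taken to vary like the others.

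Of 60 genes named by the rule, 58 kept their sign in all alternatives. Most of them were chosen by a small p of this same difference, which makes a stable sign likely. Alternatives that change only the spread, such as the siRNA term or the fit without the trend, leave the difference as it is. The count is therefore no independent support. Leaving out 1 library gave NFE2L2 differences from -0.14 to 0.67, below 0 without H460 siRNA 30 and, at -0.0015, without H460 control 1. It gave CEBPB differences from -0.32 to 0.57, below 0 without H460 siRNA 28, H2023 siRNA 30 (-0.12) or H460 control 1 (-0.10). Of 33 list medians, 23 kept 1 sign. The causes were not tested. With 2 libraries a group and a median standard error of 0.36, only 2 of the 1462 genes with a difference of at least 1 log2 unit passed the threshold.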

Other observations

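A list of 50 ribosome biogenesis genes was written after NOLC1 and other nucleolar genes had been seen among the lowest differences, so its values only describe. All 50 had a difference below 0, from -1.96 to -0.50, with a median of -1.10, and 47 were wholly below H2023 (94%, against 19.1% of all genes). The median change was -1.24 in H460, -0.16 in H2023 and -0.25 in A549. The median difference was -1.05 with siRNA 28 and -1.16 with siRNA 30, beside -0.71 and -1.87 for DNA replication. With the siRNA term 15 of the 50 passed the threshold, against 1.14% of all genes. MYBBP1A, a regulator of ribosomal RNA transcription, read 110 and 85.8 FPKM and then 38.2 and 38.4 FPKM in H460, against 45.7 and 45.7 FPKM and then 50.3 and 54.6 FPKM in H2023. RRP12, an export factor of pre-ribosomes, read 91.8 and 74.7 FPKM and then 29.2 and 23.8 FPKM in H460, against 42 and 45.4 FPKM and then 42.9 and 40.8 FPKM in H2023. The H460 controls stood above all other libraries for both genes. Cytosolic ribosomal proteins, the products assembled there, had a median of 0.16, which was -0.27 with siRNA 28 and 0.53 with siRNA 30.

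Lysosomal genes leaned the other way, with 25 of 29 above 0, a median of 0.55 and 14 wholly above H2023 (48.3%, against 14.7% of all genes), and their median was 0.34 with siRNA 28, 0.70 with siRNA 30 and 0.40 to 0.68 when 1 library was left out. For 21 of the 24 genes with the smallest p the A549 change was nearer to that of H2023 than to that of H460, as it was for 8061 of all 12145 genes (66.4%), though A549 was prepared with another protocol. Of all genes tested, 8962 (73.8%) had the same sign of difference with either siRNA.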
